A study of Triticum aestivum with 12 samples.

Results

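The distal block of chromosome 6B is a stretch of gene models near the end of that chromosome in bread wheat. It was chosen by the measured values of AAC Starbuck, from a run of genes in which this variety stood apart from the others, and was set as the identifiers TraesCS6B02G439800 to TraesCS6B02G470800 with both ends included. Of the 300 identifiers in this range, 110 reached a value of 10 in 3 or more of the 12 libraries and are called members here. A further 95 identifiers were above 0 in some library but under that limit, and 95 were at 0 in every library. The table held 107411 identifiers, of which 44026 passed the same limit and were tested, 1879 of them on chromosome 6B. Members are numbered from 1 to 110 in identifier order, which places 1757 tested genes of the chromosome before the block and 12 after it.

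The study compared cuticular waxes among Canadian spring wheat varieties, and its RNA measurements covered the flag leaf, the last leaf below the spike. The varieties were AAC Starbuck and AAC Concord, which were developed for Western growing areas, and AAC Magnet and AAC Tradition, developed for Eastern ones. Each had 3 libraries labelled with the Control treatment, and no agent or transgene was added. The labels place the plants in field plots, with the leaves of a plot sampled as 1, whereas the methods describe greenhouse plants under control conditions, and which of them holds was not settled here. P-values therefore measure only the spread between these samples, part of which may be technical. Leaf identity was not checked against marker genes, since the identifiers carry no names.

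Bread wheat carries the A, B and D subgenomes, so that most genes on chromosome 6B have related copies on chromosomes 6A and 6D. The ends of wheat chromosomes hold many genes, recombine more often than the middle and differ in gene content between varieties. Breeding lines inherit long stretches of chromosome from their parents, and a pair of varieties can therefore share a parental stretch at one place and differ at the next. This is background, and no genotype was measured here.

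The values are normalized counts per gene, in effect reads scaled to a common level, and they are compared between varieties for the same gene rather than between genes. Values listed for a gene and variety are its normalized counts in replicates 1, 2 and 3. The libraries held an estimated 4485505 to 7093838 reads, and a single read was worth 0.798 to 1.24 normalized counts. A value at or below that of 3 reads, 2.39 to 3.72 by library, is called off here, which covers counting error only. In each library 3 to 13 of the 110 members lay more than 2-fold from the mean of the other replicates of that variety. In leaf tissue, fewer cells of a type and less RNA per cell cannot be told apart. Neither the table nor the study's text names these identifiers, and the RefSeq gene table holds 0 of them, so the members are described by identifier, order and level. Reads were assigned to the gene models of 1 reference genotype, and the part of sequence differences between varieties or of related copies in any value below was not tested.

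A gene was called a differentially expressed gene (DEG) in a pair of varieties when limma gave an adjusted p under 0.05 over all 44026 genes and the log2 fold change lay beyond 1 or -1 on the log2(value + 1) scale. From the 6 pairs, a member was given a split when every pair across 2 sides was a DEG in 1 direction and no pair within a side was. The calls of AAC Starbuck were used to choose the block and are therefore given as a description, without a test. The pairs among AAC Concord, AAC Magnet and AAC Tradition do not hold AAC Starbuck, although they come from the same fit. They are not free of that choice either, since AAC Starbuck was set against the mean of these varieties.

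Of the 110 members, 57 (51.8%) had no DEG in any pair, against 80.7% of all genes tested. In 10 members AAC Starbuck stood alone, 6 of them higher and 4 lower, which is 9.09% of members beside 0.765% of all genes. In 14 members AAC Starbuck and AAC Magnet stood together against AAC Concord and AAC Tradition, 9 higher and 5 lower, which is 12.7% of members beside 0.586% of all genes. AAC Tradition stood alone in 2 members and AAC Magnet in 1, and 26 members had calls that fitted no split. No member put AAC Concord alone, AAC Starbuck with AAC Concord, or AAC Starbuck with AAC Tradition. The 2 frequent splits lay in different places, since members with AAC Starbuck alone fell between numbers 4 and 53 and those with AAC Starbuck and AAC Magnet together between numbers 61 and 109. In all of these splits the libraries of the 2 sides did not overlap.

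**Figure D1:**
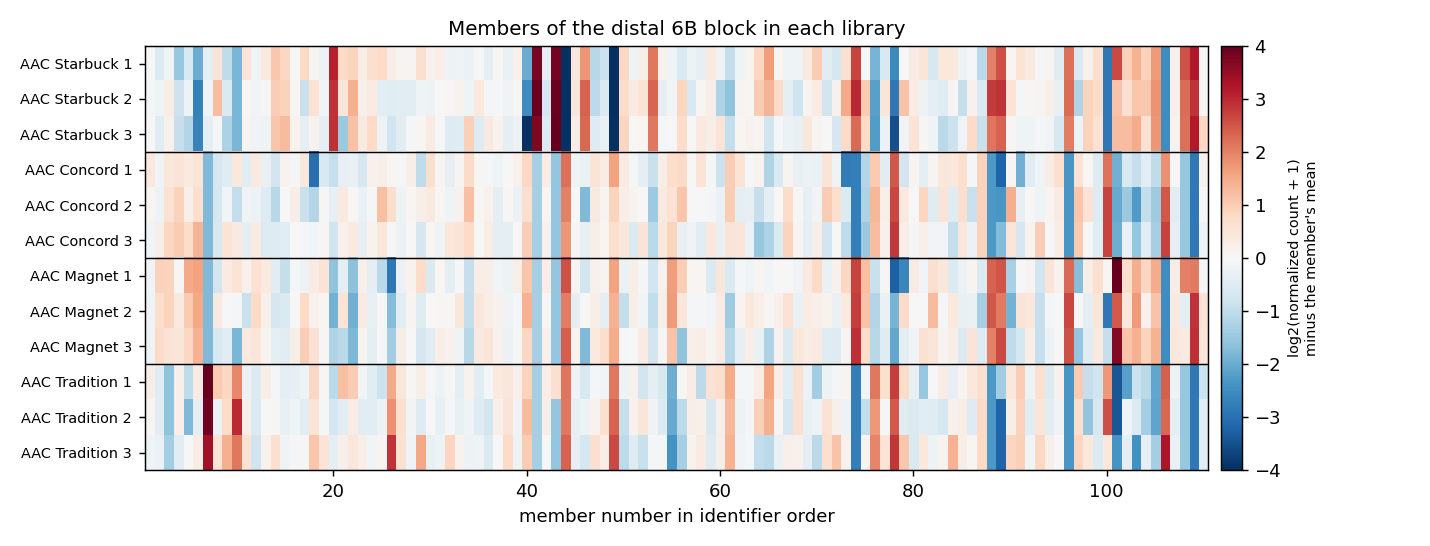
Log2 difference of each of the 110 members (left to right in identifier order) from its mean over the 12 libraries, with 1 row per library, 3 libraries per variety and colours that stop at 4 and -4. Rows of AAC Magnet look like those of AAC Concord and AAC Tradition around members 40 to 53 and like those of AAC Starbuck from member 61 on.

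Among the pairs without AAC Starbuck, AAC Magnet and AAC Tradition differed in 33 of 110 members (30.0%), against 6.21% of all genes tested. Of these, 20 were higher in AAC Magnet (background 2.79%) and 13 were lower (background 3.42%). AAC Concord and AAC Magnet differed in 24 members (21.8%), against 9.26% of all genes, with 12 higher in AAC Concord (background 4.37%) and 12 lower (background 4.90%). AAC Concord and AAC Tradition differed in 9 members (8.18%), near the background of 7.05%, with 3 higher in AAC Concord (background 2.84%) and 6 lower (background 4.21%). The block thus stood above the background wherever AAC Magnet was in the pair and near it where AAC Magnet was not. Across the 3 varieties together, 49 members (44.5%) passed the limma F test at an adjusted p under 0.05, against 17.9% of all genes. A gene in which AAC Magnet goes with AAC Starbuck also sets AAC Starbuck apart from the mean of the others. Every member with that split was a DEG in that contrast. The shares with AAC Magnet and of the F test are therefore not free of the choice of the block, and no conclusion is drawn from them.

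The pairs with AAC Starbuck are given for completeness. There were 37 DEGs between AAC Starbuck and AAC Concord (33.6%, background 9.0%), 24 between AAC Starbuck and AAC Magnet (21.8%, background 6.11%) and 38 between AAC Starbuck and AAC Tradition (34.5%, background 4.97%). Against the mean of the other 3 varieties AAC Starbuck had 33 DEGs (30.0%, background 6.18%). These shares follow from the choice of the block and nothing is read from them.

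Other stretches are given for scale. In the other 1769 tested genes of chromosome 6B the share of DEGs was 10% between AAC Magnet and AAC Tradition, 14.6% between AAC Concord and AAC Magnet and 10.2% between AAC Concord and AAC Tradition. The last 110 tested genes of chromosome 6A gave 13.6%, 15.5% and 10.9% for the same pairs, and those of chromosome 6D gave 15.5%, 13.6% and 2.73%. The share between AAC Magnet and AAC Tradition was thus higher in the block than in these other stretches, while that between AAC Concord and AAC Tradition was below the shares of chromosomes 6B and 6A and above that of 6D. The members were lower in level, with a median mean of 31.4 normalized counts against 46.2 over all genes tested. Their spread was similar, with a median within-variety SD of 0.32 on the log2 scale against 0.30.

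**Figure D2:**
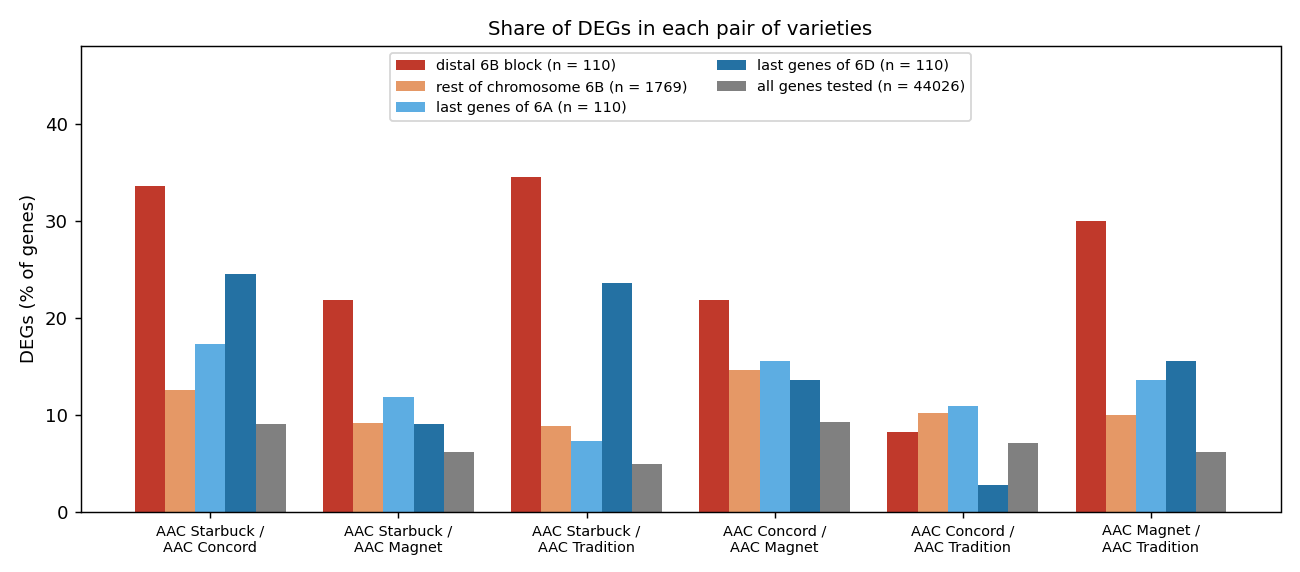
Share of DEGs (% of genes) in each of the 6 pairs of varieties, for the block, the rest of chromosome 6B, the last 110 tested genes of chromosomes 6A and 6D, and all genes tested. The block bar is the highest of its group in every pair but AAC Concord / AAC Tradition, where it is 8.18% beside 7.05% over all genes.

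The first members set the near end of the block. TraesCS6B02G439800, the first, had 361, 340.4 and 358 in AAC Starbuck, 478, 374 and 331 in AAC Concord, 333, 322 and 309 in AAC Magnet and 415, 367 and 315 in AAC Tradition. Its varieties overlapped, and it was a DEG in no pair. TraesCS6B02G440000 had 99.6, 131 and 104 in AAC Starbuck, 132, 126 and 173 in AAC Concord, 277, 238 and 247 in AAC Magnet and 109, 109 and 124 in AAC Tradition. All 3 AAC Magnet libraries lay above those of the other varieties (AAC Magnet against AAC Tradition, log2 fold change 1.15, standard error 0.17, adjusted p = 0.0014 by limma). The 2 tested genes just outside this end were DEGs in no pair, but of the 12 before the block 3 differed between AAC Tradition and AAC Concord, 3 between AAC Magnet and AAC Tradition, 0 between AAC Concord and AAC Magnet and 1 in each pair with AAC Starbuck. TraesCS6B02G439600 had 50.98, 57.1 and 48.7 in AAC Starbuck, 63.8, 53.6 and 55.8 in AAC Concord, 66.02, 71.7 and 56.9 in AAC Magnet and 52.1, 40.7 and 42.1 in AAC Tradition. TraesCS6B02G439700 had 28.8, 32.2 and 23.2 in AAC Starbuck, 28.1, 21.4 and 23.1 in AAC Concord, 44.01, 46.6 and 24.01 in AAC Magnet and 32.2, 36.7 and 19.9 in AAC Tradition.

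AAC Tradition stood alone in 2 early members. TraesCS6B02G440200 had 360.2, 489 and 449.7 in AAC Starbuck, 539.6, 604 and 725 in AAC Concord, 733, 727 and 582 in AAC Magnet and 130.2, 128 and 153 in AAC Tradition. All 3 AAC Tradition libraries lay below the lowest of the other 9, and limma placed AAC Concord above AAC Tradition (log2 fold change 2.17, standard error 0.18, adjusted p = 1.3e-05) and AAC Magnet above AAC Tradition (log2 fold change 2.30, standard error 0.18, adjusted p = 9.5e-06). TraesCS6B02G442300 ran the other way, with 0 in all 3 AAC Starbuck libraries, 3.75, 0.825 and 3.55 in AAC Concord, 4.19, 2.39 and 0 in AAC Magnet and 12.4, 26.8 and 14.4 in AAC Tradition. It was on in every AAC Tradition library and off in all of AAC Starbuck, and the AAC Tradition mean was at least 5.73-fold higher than the value of 3 reads in AAC Starbuck. Limma put AAC Concord below AAC Tradition at this gene (log2 fold change -2.39, standard error 0.56, adjusted p = 0.021).

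Between them, TraesCS6B02G441000 showed another pattern. Its values were 1.65, 2.07 and 1.59 in AAC Starbuck, 0 in all 3 AAC Concord libraries, 0 in all 3 AAC Magnet libraries and 61.9, 48.6 and 34.2 in AAC Tradition. All 6 libraries of AAC Concord and AAC Magnet were at 0, those of AAC Starbuck were at about 2 reads, and those of AAC Tradition were clearly on. AAC Starbuck, though off, was called above AAC Concord (adjusted p = 0.00046) and AAC Magnet (adjusted p = 0.00073) by limma, each at a log2 fold change of 1.47. Only these calls kept the gene from the split with AAC Tradition alone. AAC Tradition was at least 13.5-fold higher than the value of 3 reads in AAC Concord and AAC Magnet (limma, adjusted p = 6.9e-09 against AAC Concord and 9.4e-09 against AAC Magnet). The gene passed the limit on low values through AAC Tradition alone, so these p-values are not free of that limit.

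Other early members ranked the varieties differently again. TraesCS6B02G440500 had 10.7, 17.6 and 16.8 in AAC Starbuck, 46.9, 62.7 and 66.6 in AAC Concord, 33.5, 41.8 and 45.4 in AAC Magnet and 37.2, 37.7 and 23.2 in AAC Tradition, with AAC Starbuck below the other 9 libraries, the first member in which this variety stood alone. TraesCS6B02G440800 had 5.76, 3.12 and 3.20 in AAC Starbuck, 37.5, 41.2 and 67.4 in AAC Concord, 80.7, 76.4 and 69.4 in AAC Magnet and 32.2, 19.9 and 32.1 in AAC Tradition. AAC Starbuck was again lowest, and AAC Magnet was also above AAC Tradition (log2 fold change 1.43, standard error 0.28, adjusted p = 0.009 by limma). TraesCS6B02G440600 had 49.3, 66.5 and 33.6 in AAC Starbuck, 100.4, 88.2 and 128 in AAC Concord, 221, 158 and 137 in AAC Magnet and 37.2, 21.9 and 77.5 in AAC Tradition, so that AAC Magnet was highest and AAC Starbuck overlapped with AAC Tradition. TraesCS6B02G441900 had 24.2, 32.8 and 20.1 in AAC Starbuck, 35.6, 46.2 and 72.9 in AAC Concord, 62.9, 49.9 and 37.3 in AAC Magnet and 90.1, 83.98 and 134 in AAC Tradition, with AAC Tradition highest, and only its pair with AAC Starbuck was a DEG.

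TraesCS6B02G443700 had 127, 132 and 129 in AAC Starbuck, 180.1, 120.4 and 176 in AAC Concord, 211, 244 and 197 in AAC Magnet and 97.9, 93.3 and 80.7 in AAC Tradition, with AAC Magnet above AAC Tradition (log2 fold change 1.25, standard error 0.18, adjusted p = 0.0011 by limma). TraesCS6B02G444100 had 776, 724 and 785 in AAC Starbuck, 219, 168 and 258 in AAC Concord, 276, 229 and 283 in AAC Magnet and 347, 379 and 579.8 in AAC Tradition, and TraesCS6B02G444700 had 80.8, 87.2 and 110.2 in AAC Starbuck, 50.6, 46.2 and 33.7 in AAC Concord, 23.1, 29.8 and 33.8 in AAC Magnet and 34.7, 36.7 and 40.9 in AAC Tradition. AAC Starbuck was the highest variety in both, but in TraesCS6B02G444100 AAC Tradition lay between it and the rest, so that only the second gene had AAC Starbuck alone. TraesCS6B02G445600 was a low gene with 7.34, 11.3 and 7.90 in AAC Starbuck, 0, 2.58 and 6.48 in AAC Concord, 9.33, 8.27 and 11.4 in AAC Magnet and 13.5, 10.8 and 16.4 in AAC Tradition. AAC Concord was below AAC Tradition by limma (log2 fold change -2.26, standard error 0.55, adjusted p = 0.026), a call lost without AAC Concord replicate 2 or any 1 of the AAC Tradition libraries.

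Among the members with AAC Starbuck alone, TraesCS6B02G446100 was the first with a wide gap. It had 104, 93.5 and 94.3 in AAC Starbuck, 5.63, 9.07 and 6.20 in AAC Concord, 3.14, 2.39 and 4.45 in AAC Magnet and 4.96, 6.95 and 8.85 in AAC Tradition. Its AAC Starbuck libraries were more than 10 times the highest of the other 9. The remaining libraries were low but not equal, and the F test across AAC Concord, AAC Magnet and AAC Tradition gave an adjusted p of 0.034 by limma, although no pair among them was a DEG.

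Members 21 to 40 were the quietest part of the block, with 16 of 20 in no DEG pair, beside 80.7% of all genes tested. TraesCS6B02G450000 and TraesCS6B02G450200 belonged to it and were among the highest members, with 424, 507 and 345 in AAC Starbuck, 387, 436 and 662 in AAC Concord, 373, 508 and 555 in AAC Magnet and 504, 473 and 890.0 in AAC Tradition for the first and 616, 745 and 489 in AAC Starbuck, 745, 776 and 984 in AAC Concord, 643, 943 and 608 in AAC Magnet and 530.3, 551 and 749.6 in AAC Tradition for the second. Their varieties overlapped throughout. The exceptions were TraesCS6B02G447500, TraesCS6B02G449000, TraesCS6B02G450500 and TraesCS6B02G451500. TraesCS6B02G447500 had 23.1, 33.2 and 27.9 in AAC Starbuck, 9.38, 12.4 and 15.99 in AAC Concord, 3.14, 2.39 and 2.67 in AAC Magnet and 24.8, 14.9 and 16.6 in AAC Tradition. AAC Magnet was at about 3 reads there while the other varieties were higher in every library. AAC Concord was above AAC Magnet (log2 fold change 1.84, standard error 0.24, adjusted p = 0.00041 by limma).

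TraesCS6B02G449000 had 7.43, 4.15 and 3.19 in AAC Starbuck, 6.56, 10.7 and 6.22 in AAC Concord, 0, 1.19 and 1.78 in AAC Magnet and 19.8, 24.8 and 53.1 in AAC Tradition. Here AAC Magnet was off and AAC Tradition highest, with AAC Starbuck and AAC Concord between them, and AAC Concord was above AAC Magnet (log2 fold change 2.24, standard error 0.45, adjusted p = 0.0075) and below AAC Tradition (log2 fold change -1.83, standard error 0.45, adjusted p = 0.027) by limma. TraesCS6B02G450500 had 100, 105 and 231 in AAC Starbuck, 202, 277 and 202 in AAC Concord, 62.9, 60.8 and 54.2 in AAC Magnet and 130, 105 and 104 in AAC Tradition, with all 3 AAC Magnet libraries below the other 9.

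The densest run of members with AAC Starbuck alone went from TraesCS6B02G451500 to TraesCS6B02G453800, a stretch of 14 members whose limits were drawn after the calls were seen. It held 7 of the 10 such members. None of the 14 was a DEG between AAC Concord and AAC Magnet (background 9.26%) or between AAC Magnet and AAC Tradition (background 6.21%). Between AAC Concord and AAC Tradition 2 were (14.3%, background 7.05%). Few members are counted here, and the split with AAC Starbuck alone bars calls among the other varieties by definition. Nothing is therefore read from these counts. The median absolute log2 fold change was 0.09 between AAC Concord and AAC Magnet, 0.21 between AAC Magnet and AAC Tradition and 0.22 between AAC Concord and AAC Tradition. With AAC Starbuck in the pair it was 2.1 against AAC Concord, 2.11 against AAC Magnet and 1.96 against AAC Tradition. With the 4 members that were at 0 throughout a variety placed at their lower bounds, these 3 medians did not move, and those among the other varieties were 0.09, 0.17 and 0.19.

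TraesCS6B02G451500 had 4.94, 3.12 and 0 in AAC Starbuck, 40.3, 36.3 and 45.2 in AAC Concord, 49.2, 60.9 and 40.9 in AAC Magnet and 43.4, 54.6 and 46.5 in AAC Tradition. AAC Starbuck was at 0 to about 6 reads while the other 9 libraries lay within 2-fold of each other. The next member, TraesCS6B02G451600, was its opposite, with 33.8, 48.7 and 31.9 in AAC Starbuck, 0 in all 3 AAC Concord libraries, 0 in all 3 AAC Magnet libraries and 0 in all 3 AAC Tradition libraries. It was on in AAC Starbuck alone, at least 10.3-fold higher than the value of 3 reads elsewhere. TraesCS6B02G452000 had 40.4, 43.5 and 45.5 in AAC Starbuck, 0 in all 3 AAC Concord libraries, 0 in all 3 AAC Magnet libraries and 3.71, 0 and 0 in AAC Tradition. The single library above 0 outside AAC Starbuck was AAC Tradition replicate 1, at about 3 reads.

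TraesCS6B02G452100 gave the widest contrast of the block. It had 0 in all 3 AAC Starbuck libraries, 428, 372 and 314 in AAC Concord, 548, 385 and 501 in AAC Magnet and 408, 398 and 479 in AAC Tradition. No read was assigned to it in AAC Starbuck, at least 119-fold lower than in each other variety when 3 reads per library are taken as the limit, and the F test across AAC Concord, AAC Magnet and AAC Tradition did not pass (limma, adjusted p = 0.32). TraesCS6B02G452800 was also at 0 in AAC Starbuck, with 0 in all 3 AAC Starbuck libraries, 91.7, 56.2 and 47.2 in AAC Concord, 93.2, 79.8 and 85.3 in AAC Magnet and 131, 156 and 187 in AAC Tradition. It was at least 20.9-fold lower there than in each other variety. AAC Concord was below AAC Tradition at this gene (log2 fold change -1.31, standard error 0.23, adjusted p = 0.0039 by limma), so its calls fitted no split.

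TraesCS6B02G452300 had 10.7, 16.6 and 15.96 in AAC Starbuck, 1.88, 0 and 1.77 in AAC Concord, 1.05, 2.39 and 0 in AAC Magnet and 1.24, 1.98 and 1.11 in AAC Tradition. It was on in AAC Starbuck and at 0 to 2 reads in the other 9 libraries. TraesCS6B02G452500 had 9.89, 10.4 and 15.2 in AAC Starbuck, 32.8, 28.9 and 26.6 in AAC Concord, 25.1, 26.3 and 29.3 in AAC Magnet and 21.1, 24.8 and 36.5 in AAC Tradition, with AAC Starbuck below the rest by a smaller step. TraesCS6B02G453800 closed the stretch with 88.9, 105 and 90.2 in AAC Starbuck, 10.3, 6.60 and 8.87 in AAC Concord, 11.5, 9.55 and 11.6 in AAC Magnet and 14.9, 17.9 and 18.8 in AAC Tradition. AAC Starbuck was again highest, and the F test across the other 3 varieties gave an adjusted p of 0.01 by limma with AAC Tradition above AAC Concord in every library.

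Genes of this kind alternated with ordinary ones. Between TraesCS6B02G451600 and TraesCS6B02G452000, TraesCS6B02G451900 had 65.9, 50.9 and 55.9 in AAC Starbuck, 99.5, 84.95 and 92.2 in AAC Concord, 98.5, 83.6 and 93.4 in AAC Magnet and 96.7, 95.3 and 79.7 in AAC Tradition, and between TraesCS6B02G452100 and TraesCS6B02G452300, TraesCS6B02G452200 had 80.7, 83.05 and 72.7 in AAC Starbuck, 51.6, 58.6 and 54.98 in AAC Concord, 62.9, 44.2 and 63.1 in AAC Magnet and 53.3, 46.7 and 46.5 in AAC Tradition. AAC Starbuck lay below the rest in the first and above it in the second, with no overlap in either, but the log2 fold change of no pair passed 1. TraesCS6B02G453200 had 18.9, 17.6 and 19.2 in AAC Starbuck, 13.1, 12.4 and 14.2 in AAC Concord, 8.38, 4.78 and 9.78 in AAC Magnet and 8.68, 4.96 and 4.42 in AAC Tradition, with AAC Concord above AAC Tradition (log2 fold change 1.07, standard error 0.26, adjusted p = 0.025 by limma). This call was lost with a pseudocount of 5, with a trend in the prior variance, without any single AAC Concord library, and without AAC Tradition replicate 2 or 3. TraesCS6B02G453300 and TraesCS6B02G453500, at 4.42 to 13.5 normalized counts in all libraries, were DEGs in no pair.

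Over the 10 members with AAC Starbuck alone, the median absolute log2 fold change was 0.31 between AAC Concord and AAC Magnet, 0.33 between AAC Magnet and AAC Tradition and 0.22 between AAC Concord and AAC Tradition. In 8 of the 10 the F test across these 3 varieties did not pass. This does not show that they were equal, and part of it follows from how a split is defined.

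Between the stretches, TraesCS6B02G454800 kept a pattern of its own. It had 45.3, 46.7 and 51.1 in AAC Starbuck, 84.4, 75.9 and 95.8 in AAC Concord, 163, 167 and 113 in AAC Magnet and 12.4, 11.9 and 8.85 in AAC Tradition. AAC Magnet was highest, AAC Concord and AAC Starbuck followed in that order without overlap, and AAC Tradition was lowest. By limma AAC Concord was above AAC Tradition (log2 fold change 2.85, standard error 0.19, adjusted p = 2.4e-06), and so was AAC Magnet (log2 fold change 3.62, standard error 0.19, adjusted p = 3.4e-07). The other members from 54 to 60 were DEGs in no pair.

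**Figure D3:**
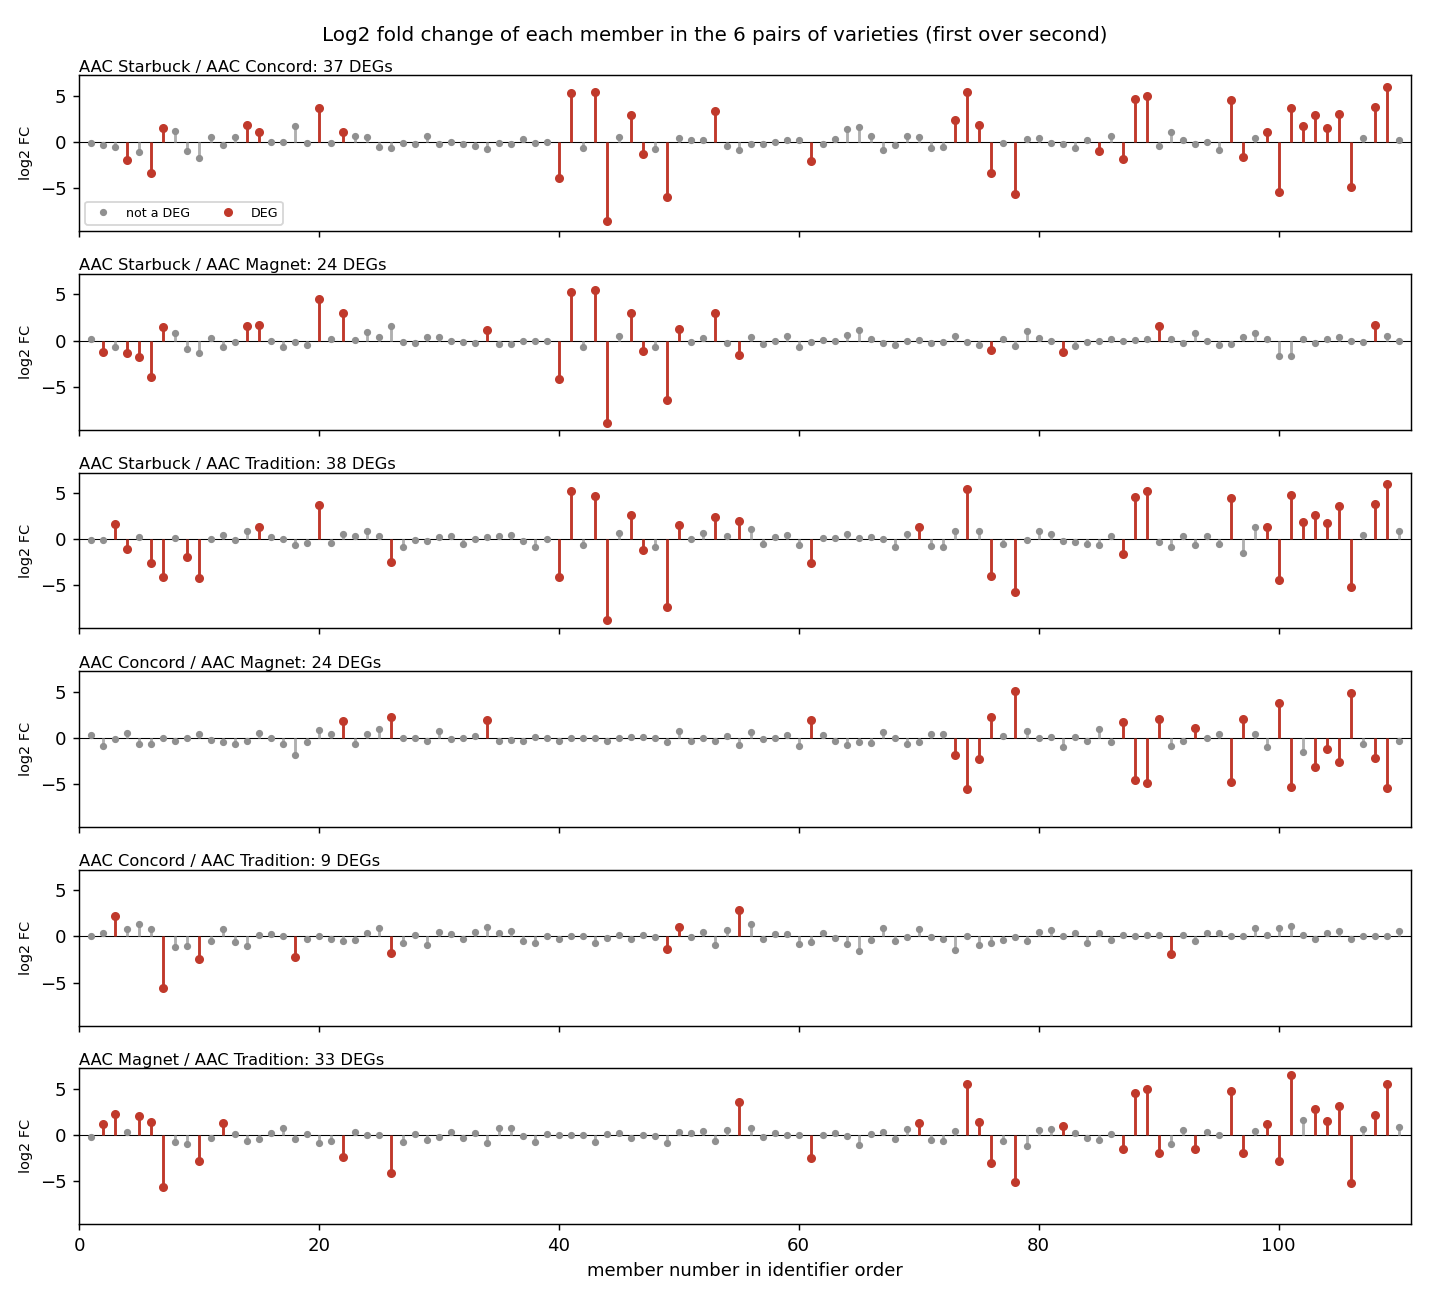
Log2 fold change of each member in identifier order for the 6 pairs of varieties, with DEGs in red and other members in grey. DEGs between AAC Starbuck and AAC Magnet thin out after member 60, where those of AAC Magnet with AAC Concord and with AAC Tradition become dense.

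In the part of the block taken from TraesCS6B02G455500 on, AAC Magnet was more often with AAC Starbuck. In the 50 members from there to the end of the block, AAC Magnet and AAC Tradition differed in 23 (46.0%, background 6.21%). AAC Concord and AAC Magnet differed in 21 (42.0%, background 9.26%), and AAC Concord and AAC Tradition in 1 (2.00%, background 7.05%). In the 60 members before it these counts were 10 (16.7%), 3 (5.00%) and 8 (13.3%). AAC Starbuck and AAC Magnet differed in 4 of the 50 (8.00%, background 6.11%), against 20 of the 60 before (33.3%). The 4 were TraesCS6B02G458500, TraesCS6B02G461200, TraesCS6B02G464200 and TraesCS6B02G470600. AAC Magnet was called in the same direction against both AAC Concord and AAC Tradition in 20 of the 50 members and in 2 of the 60, which makes 22 of 110 (20%) beside 2.71% of all genes tested. Of these 22, 11 were higher and 11 lower in AAC Magnet, and 1 was also a DEG between AAC Concord and AAC Tradition. The border at TraesCS6B02G455500 was drawn after the calls were seen, at the first member with the split of AAC Starbuck and AAC Magnet. The counts on either side of it partly follow from that. Members just before and after it held no DEG, so the place of a change is not exact.

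TraesCS6B02G455500 had 9.93, 6.22 and 10.4 in AAC Starbuck, 42.2, 42.9 and 30.2 in AAC Concord, 13.6, 7.15 and 8.89 in AAC Magnet and 60.7, 52.5 and 56.3 in AAC Tradition. AAC Starbuck and AAC Magnet were low together, and AAC Concord was above AAC Magnet (log2 fold change 1.88, standard error 0.25, adjusted p = 0.00053) by limma. The next members were quiet, and all 8 members from 62 to 69 were DEGs in no pair. TraesCS6B02G456000, with 225, 217 and 236 in AAC Starbuck, 198, 167 and 176 in AAC Concord, 188, 279 and 251 in AAC Magnet and 198, 203 and 200.3 in AAC Tradition, was an example, and so was TraesCS6B02G456800, where AAC Starbuck and AAC Magnet lay between 276 and 344 and AAC Concord and AAC Tradition between 196 and 215 without overlap but under the limit on the fold change.

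TraesCS6B02G458300 was on in 2 varieties and off in 2. It had 41.9, 52.9 and 31.1 in AAC Starbuck, 0 in all 3 AAC Concord libraries, 41.9, 44.2 and 49.8 in AAC Magnet and 0 in all 3 AAC Tradition libraries. AAC Starbuck and AAC Magnet were each at least 11.3-fold higher than the value of 3 reads in the others (AAC Concord against AAC Magnet, adjusted p = 4.1e-09, and AAC Magnet against AAC Tradition, adjusted p = 5.8e-09, by limma). The gene passed the limit on low values only through AAC Starbuck and AAC Magnet, so these p-values are not free of that limit. The members on both sides were intermediate. TraesCS6B02G458200 had 61.7, 113 and 66.3 in AAC Starbuck, 4.69, 26.4 and 18.6 in AAC Concord, 70.2, 51.4 and 41.8 in AAC Magnet and 42.1, 33.8 and 44.3 in AAC Tradition, with AAC Concord below AAC Magnet (log2 fold change -1.90, standard error 0.49, adjusted p = 0.025) and AAC Tradition between them. TraesCS6B02G458347 had 63.3, 132 and 113 in AAC Starbuck, 28.2, 26.4 and 22.2 in AAC Concord, 148, 143 and 109 in AAC Magnet and 59.5, 31.8 and 68.6 in AAC Tradition, with the same order of AAC Concord, AAC Tradition and AAC Magnet in their means.

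TraesCS6B02G458500 had 10.7, 8.31 and 7.99 in AAC Starbuck, 86.3, 105 and 99.3 in AAC Concord, 22.01, 17.9 and 18.7 in AAC Magnet and 179.7, 140.1 and 163 in AAC Tradition. AAC Tradition was highest, then AAC Concord, AAC Magnet and AAC Starbuck in that order without overlap, and AAC Concord was above AAC Magnet (log2 fold change 2.25, standard error 0.16, adjusted p = 4.4e-06 by limma). TraesCS6B02G459600 had 4.11, 3.11 and 1.597 in AAC Starbuck, 163, 186 and 212 in AAC Concord, 2.096, 7.17 and 6.23 in AAC Magnet and 202, 163 and 212 in AAC Tradition. AAC Starbuck and AAC Magnet held a few reads each where AAC Concord and AAC Tradition held at least 163 normalized counts in every library. Limma gave AAC Concord above AAC Magnet (log2 fold change 5.04, standard error 0.35, adjusted p = 3e-06) and AAC Magnet below AAC Tradition (log2 fold change -5.08, standard error 0.35, adjusted p = 3.8e-06), and no call between AAC Concord and AAC Tradition (log2 fold change -0.04, standard error 0.35, adjusted p = 0.97).

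Members 77 and 79 to 86 held no split. TraesCS6B02G462300 was among the highest members, with 368, 221 and 381 in AAC Starbuck, 655, 664 and 573 in AAC Concord, 355, 343 and 282 in AAC Magnet and 452, 509 and 504 in AAC Tradition. AAC Concord was highest, and its calls fitted no split, since only the pair of AAC Starbuck and AAC Concord was a DEG, at a log2 fold change just past the limit that was lost with a pseudocount of 5, with libraries scaled to the same total, and without AAC Concord replicate 1 or 2 or AAC Starbuck replicate 2. TraesCS6B02G461200 had 71.7, 85.1 and 99.8 in AAC Starbuck, 120.1, 79.2 and 102 in AAC Concord, 173, 269.8 and 155 in AAC Magnet and 110.3, 78.4 and 96.2 in AAC Tradition, with AAC Magnet highest (AAC Magnet against AAC Tradition, log2 fold change 1.03, standard error 0.24, adjusted p = 0.026 by limma). TraesCS6B02G460100 had 85.5, 84.1 and 100.6 in AAC Starbuck, 73.2, 66.8 and 65.6 in AAC Concord, 85.9, 69.3 and 61.4 in AAC Magnet and 55.8, 45.7 and 45.4 in AAC Tradition, with no DEG in any pair.

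A row of 3 members then shared the split of AAC Starbuck and AAC Magnet, TraesCS6B02G463000, TraesCS6B02G463500 and TraesCS6B02G463600. TraesCS6B02G463000 had 67.5, 93.4 and 76.7 in AAC Starbuck, 271, 273 and 271 in AAC Concord, 94.3, 56.1 and 99.6 in AAC Magnet and 222, 248 and 248 in AAC Tradition. It was on in every library and higher in AAC Concord and AAC Tradition, with AAC Concord above AAC Magnet (log2 fold change 1.74, standard error 0.21, adjusted p = 0.00029 by limma). TraesCS6B02G463500 had 18.9, 33.2 and 20.8 in AAC Starbuck, 0 in all 3 AAC Concord libraries, 24.1, 26.3 and 18.7 in AAC Magnet and 0 in all 3 AAC Tradition libraries, at least 6.19-fold higher in AAC Starbuck and AAC Magnet than the value of 3 reads. TraesCS6B02G463600 had 53.5, 66.4 and 46.3 in AAC Starbuck, 0, 0.825 and 1.77 in AAC Concord, 51.3, 38.2 and 56.9 in AAC Magnet and 2.48, 0 and 0 in AAC Tradition, the same pattern with 1 or 2 reads in 3 of the 6 libraries where it was off.

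TraesCS6B02G464200 was the only member in which AAC Magnet stood alone. It had 12.3, 17.6 and 11.98 in AAC Starbuck, 12.2, 33.8 and 16.8 in AAC Concord, 4.19, 2.39 and 5.34 in AAC Magnet and 16.1, 13.9 and 22.1 in AAC Tradition. AAC Concord was above AAC Magnet (log2 fold change 2.07, standard error 0.35, adjusted p = 0.0029) and AAC Magnet was below AAC Tradition (log2 fold change -1.91, standard error 0.35, adjusted p = 0.0067) by limma. TraesCS6B02G464300, with 9.87, 6.23 and 5.59 in AAC Starbuck, 0.938, 4.95 and 3.55 in AAC Concord, 6.29, 9.55 and 3.56 in AAC Magnet and 13.6, 12.9 and 13.3 in AAC Tradition, was the only member of the last 50 in which AAC Concord and AAC Tradition differed (log2 fold change -1.93, standard error 0.41, adjusted p = 0.012). TraesCS6B02G464500 was low in AAC Magnet, with 7.40, 8.31 and 7.19 in AAC Starbuck, 6.57, 6.60 and 15.95 in AAC Concord, 4.19, 3.58 and 3.56 in AAC Magnet and 12.4, 10.9 and 14.4 in AAC Tradition.

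TraesCS6B02G465800 had 22.2, 22.8 and 19.97 in AAC Starbuck, 0 in all 3 AAC Concord libraries, 23.05, 31.05 and 28.5 in AAC Magnet and 0 in all 3 AAC Tradition libraries. It was on at a similar level in AAC Starbuck and AAC Magnet and at 0 in the other 6 libraries, at least 5.83-fold higher than the value of 3 reads. TraesCS6B02G466700 had 14.8, 9.35 and 19.97 in AAC Starbuck, 34.7, 50.3 and 47.9 in AAC Concord, 6.29, 22.7 and 7.12 in AAC Magnet and 47.1, 37.8 and 42.1 in AAC Tradition, with AAC Starbuck and AAC Magnet below AAC Concord and AAC Tradition and no overlap between the sides. AAC Concord was above AAC Magnet (log2 fold change 2.00, standard error 0.41, adjusted p = 0.0083 by limma), but the pair of AAC Starbuck and AAC Tradition was not a DEG, so it held no split. TraesCS6B02G468200 had 343, 368 and 332 in AAC Starbuck, 155, 154 and 160.4 in AAC Concord, 342, 311 and 281 in AAC Magnet and 126, 139 and 148 in AAC Tradition, the same pairing in the other direction, and missed a split since the log2 fold change of AAC Concord against AAC Magnet was -0.98, inside the limit.

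The end of the block was the part in which the pairing of AAC Starbuck with AAC Magnet was most frequent. In members 101 to 110, 7 of 10 were DEGs between AAC Concord and AAC Magnet (background 9.26%) and 7 between AAC Magnet and AAC Tradition (background 6.21%). Among these members 1 was a DEG between AAC Starbuck and AAC Magnet (background 6.11%) and 0 between AAC Concord and AAC Tradition (background 7.05%). Their median absolute log2 fold change was 2.38 between AAC Concord and AAC Magnet, 2.49 between AAC Magnet and AAC Tradition, 0.21 between AAC Starbuck and AAC Magnet and 0.32 between AAC Concord and AAC Tradition. With the 3 members that were at 0 throughout a variety placed at their lower bounds, these were 2.06, 2.23, 0.21 and 0.32.

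**Figure D4:**
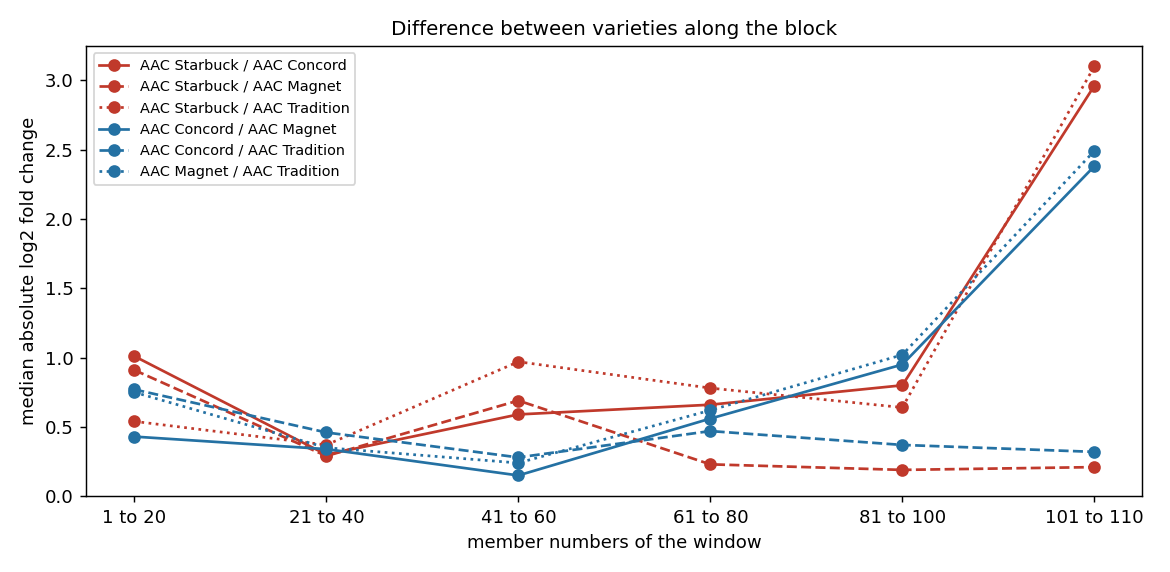
Median absolute log2 fold change of each pair of varieties in consecutive windows of 20 members (10 in the last). The AAC Starbuck / AAC Magnet line is at 0.69 in members 41 to 60 and at 0.23 or less from member 61 on, while the lines of AAC Magnet with AAC Concord and AAC Tradition reach 2.38 and 2.49 in the last window.

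TraesCS6B02G468500 had 0 in all 3 AAC Starbuck libraries, 31.3, 45.7 and 46.1 in AAC Concord, 6.60, 0 and 2.80 in AAC Magnet and 23.1, 41.9 and 8.68 in AAC Tradition. It was at 0 in AAC Starbuck and on in AAC Concord, at least 13.2-fold higher than the value of 3 reads in AAC Starbuck. AAC Magnet held 0 to about 6 reads and lay below both AAC Concord and AAC Tradition, and AAC Concord was above AAC Magnet (log2 fold change 3.75, standard error 0.67, adjusted p = 0.0036 by limma). TraesCS6B02G468600 had 66.9, 22.8 and 24.7 in AAC Starbuck, 1.87, 1.65 and 1.78 in AAC Concord, 169.6, 58.4 and 137 in AAC Magnet and 0, 0 and 1.104 in AAC Tradition. The libraries of AAC Starbuck and AAC Magnet were uneven here, but all 6 lay more than 10 times above the highest of AAC Concord and AAC Tradition (AAC Concord against AAC Magnet, log2 fold change -5.34, standard error 0.48, adjusted p = 2.4e-05). TraesCS6B02G468900 had 18.4, 14.3 and 22.7 in AAC Starbuck, 5.53, 2.56 and 7.36 in AAC Concord, 15.4, 12.4 and 20.96 in AAC Magnet and 1.22, 7.80 and 6.87 in AAC Tradition, with the same pairing, but AAC Concord against AAC Magnet did not pass the test (adjusted p = 0.061 by limma), so it held no split.

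The longest run of members with 1 split went from TraesCS6B02G469000 to TraesCS6B02G470100, which is 4 consecutive members, with untested identifiers between the first and the second. TraesCS6B02G469000 had 74.9, 61.2 and 79.1 in AAC Starbuck, 14.1, 4.95 and 8.87 in AAC Concord, 77.5, 93.1 and 76.5 in AAC Magnet and 14.9, 18.9 and 4.43 in AAC Tradition. TraesCS6B02G469900 had 32.9, 36.3 and 26.4 in AAC Starbuck, 12.2, 8.25 and 12.4 in AAC Concord, 31.4, 19.1 and 32.02 in AAC Magnet and 7.44, 5.96 and 13.3 in AAC Tradition. Both were higher in AAC Starbuck and AAC Magnet, and AAC Concord was below AAC Magnet in each (log2 fold change -3.11, standard error 0.45, adjusted p = 0.00093 for the first, and log2 fold change -1.24, standard error 0.29, adjusted p = 0.017 for the second, by limma).

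TraesCS6B02G470000 had 166, 175 and 172 in AAC Starbuck, 24.4, 18.1 and 19.5 in AAC Concord, 141, 111 and 133 in AAC Magnet and 11.2, 10.9 and 18.8 in AAC Tradition, the highest of the 4. TraesCS6B02G470100 ran the other way, with 0 in all 3 AAC Starbuck libraries, 18.8, 30.5 and 35.5 in AAC Concord, 0 in all 3 AAC Magnet libraries and 28.5, 26.8 and 52.03 in AAC Tradition. It was at 0 in all 6 libraries of AAC Starbuck and AAC Magnet and at least 7.89-fold higher in AAC Concord and AAC Tradition than the value of 3 reads there. No call was made between AAC Concord and AAC Tradition (log2 fold change -0.31, standard error 0.27, adjusted p = 0.53 by limma). So within 4 consecutive members the same pair of varieties was higher in 3 and off in 1.

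TraesCS6B02G470600, named here after its values were seen, had 15.7, 12.45 and 11.97 in AAC Starbuck, 0 in all 3 AAC Concord libraries, 10.5, 1.19 and 2.67 in AAC Magnet and 0 in all 3 AAC Tradition libraries. AAC Concord and AAC Tradition were at 0, and AAC Magnet lay between them and AAC Starbuck, with 1 of its 3 libraries near AAC Starbuck. TraesCS6B02G470700 had 66.1, 52.7 and 64.95 in AAC Starbuck, 0 in all 3 AAC Concord libraries, 29.5, 52.3 and 53.6 in AAC Magnet and 0 in all 3 AAC Tradition libraries. It was at least 12.1-fold higher in AAC Starbuck and AAC Magnet than the value of 3 reads, and AAC Concord against AAC Magnet and AAC Magnet against AAC Tradition had adjusted p values of 1.6e-08 and 2.3e-08 by limma. As at TraesCS6B02G458300, these p-values are not free of the limit on low values.

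TraesCS6B02G470800, the last member, had 70.1, 70.5 and 125 in AAC Starbuck, 77.95, 71.6 and 62.8 in AAC Concord, 67.9, 101.1 and 98.4 in AAC Magnet and 38.3, 51.4 and 52.9 in AAC Tradition, and was a DEG in no pair. Just outside, TraesCS6B02G470900 had 116, 81.97 and 146 in AAC Starbuck, 139, 137 and 112 in AAC Concord, 132, 173 and 103 in AAC Magnet and 80.5, 93.3 and 97.3 in AAC Tradition, and TraesCS6B02G471500 had 22.3, 25.9 and 16.8 in AAC Starbuck, 27.2, 32.2 and 26.6 in AAC Concord, 29.3, 29.8 and 40.02 in AAC Magnet and 38.4, 13.9 and 23.2 in AAC Tradition. Their varieties overlapped. Of the 12 tested genes after the block, 3 were DEGs between AAC Concord and AAC Magnet, 2 between AAC Magnet and AAC Tradition and 0 between AAC Concord and AAC Tradition. With AAC Starbuck in the pair, 2 were DEGs against AAC Concord, 0 against AAC Magnet and 1 against AAC Tradition.

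Over the 14 members with AAC Starbuck and AAC Magnet together, the 2 sides differed by 1.51 to 5.72 on the log2 scale. Median absolute log2 fold changes were 0.21 between AAC Starbuck and AAC Magnet and 0.25 between AAC Concord and AAC Tradition, beside 4.70 for both AAC Concord against AAC Magnet and AAC Magnet against AAC Tradition. The last 2 became 3.20 and 3.03 with the 6 members at 0 in a variety placed at their lower bounds. All 14 passed the F test across AAC Concord, AAC Magnet and AAC Tradition, which follows nearly from how the split is defined.

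Some members switched between on and off. Members that were off in every library of some variety and at 10 or more in every library of another numbered 17 (15.5%), against 2.48% of all genes tested. AAC Starbuck was among the on or off varieties in 16 of the 17, so this share also follows from the choice of the block and nothing is read from it. The count also turns on values at the limit itself. TraesCS6B02G447500, with 3.14, 2.39 and 2.67 in AAC Magnet beside limits of 3.14, 3.58 and 2.67, was not counted. TraesCS6B02G452000, with 3.71 in AAC Tradition replicate 1 beside a limit of 3.72, was counted. Of the 17, 8 lay before TraesCS6B02G455500 and 9 from it on. AAC Starbuck was on with the other varieties all off in 3 (TraesCS6B02G451600, TraesCS6B02G452000 and TraesCS6B02G452300), and off with the others all on in 2 (TraesCS6B02G452100 and TraesCS6B02G452800). AAC Starbuck and AAC Magnet were on with the others off in 6 (TraesCS6B02G458300, TraesCS6B02G463500, TraesCS6B02G463600, TraesCS6B02G465800, TraesCS6B02G468600 and TraesCS6B02G470700), and the reverse held in 1 (TraesCS6B02G470100). In the remaining 5 some variety was neither on nor off in all of its libraries, or AAC Tradition was on alone. TraesCS6B02G470600 was on in AAC Starbuck and off in AAC Concord and AAC Tradition, TraesCS6B02G442300 was off in AAC Starbuck and on in AAC Tradition, TraesCS6B02G468500 was off in AAC Starbuck and on in AAC Concord, TraesCS6B02G449000 was on in AAC Tradition and off in AAC Magnet, and TraesCS6B02G441000 was on in AAC Tradition and off in the other varieties.

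**Figure D5:**
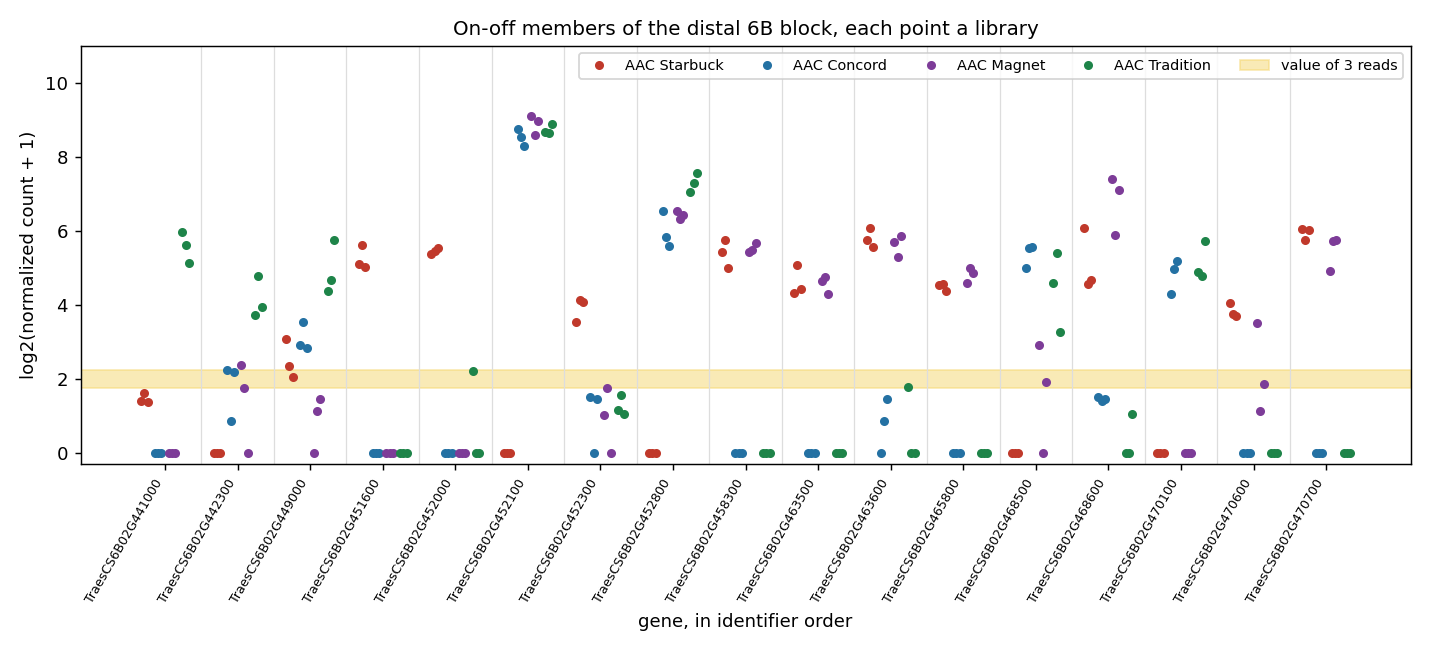
Level of each on-off member as log2(normalized count + 1) in the 12 libraries, with 1 point per library coloured by variety and a band at the values of 3 reads. The 3 libraries of a variety lie together in most genes, and AAC Magnet joins AAC Concord and AAC Tradition in TraesCS6B02G452100 and AAC Starbuck in TraesCS6B02G458300.

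A member that passed the limit on low values only through the varieties where it was high had to differ, so the counts above are not free of that limit. At a value of 10 or more in some library, 75 members were present in all 4 varieties, 9 in AAC Starbuck and AAC Magnet only, 5 in AAC Concord and AAC Tradition only, 4 in AAC Concord, AAC Magnet and AAC Tradition only, 4 in AAC Starbuck only and 3 in AAC Tradition only. The lowest member had a mean of 4.53 normalized counts and the highest 698.

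As a description over all 110 members, which share libraries and levels, each library was nearest to its own variety in log2 level, with a Pearson correlation of 0.956 to 0.980 across members between a library and the mean of its variety's others. By the same measure AAC Concord and AAC Tradition libraries stood at 0.892 to 0.907 with each other's variety, AAC Concord and AAC Magnet at 0.705 to 0.735, AAC Starbuck and AAC Magnet at 0.655 to 0.688, AAC Magnet and AAC Tradition at 0.588 to 0.621, AAC Starbuck and AAC Concord at 0.449 to 0.480, and AAC Starbuck and AAC Tradition at 0.350 to 0.373. By this measure AAC Magnet was nearer to AAC Concord than to AAC Starbuck over the whole block. The median absolute log2 fold change was ordered the other way, at 0.46 between AAC Concord and AAC Magnet and 0.42 between AAC Starbuck and AAC Magnet. The block was chosen where AAC Starbuck stood apart, so nothing is read from the correlations of that variety. No library stood apart from its label.

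The 95 identifiers that were above 0 but under the limit on low values were not tested and are described by detection alone. In 4 of them, TraesCS6B02G463100, TraesCS6B02G463700, TraesCS6B02G463800 and TraesCS6B02G469100, reads were found in all 6 AAC Starbuck and AAC Magnet libraries and in no library of AAC Concord or AAC Tradition. Their highest values were 16, 9.88, 4.18 and 19.2 normalized counts, in the order named. In TraesCS6B02G465100 and TraesCS6B02G466800, with highest values of 11.1 and 11.9 normalized counts, the reverse held. These 6 identifiers (6.32%, beside 0.212% of the 30156 identifiers of the table that were above 0 and under the limit) all lay after TraesCS6B02G455500, where members with the same pairing were found. A further 5 (5.26%, beside 0.388%) set AAC Starbuck apart from the other varieties. Of these, TraesCS6B02G442100, TraesCS6B02G449500 and TraesCS6B02G460800 were detected in AAC Starbuck alone, and TraesCS6B02G441200 and TraesCS6B02G441400 in every library but those of AAC Starbuck. TraesCS6B02G460800 lay after TraesCS6B02G455500, where no member had AAC Starbuck alone, and the others lay before it. In TraesCS6B02G447800 and TraesCS6B02G453900 the reads were in every library of AAC Magnet and AAC Tradition and in none of the others, and in TraesCS6B02G443300 they were in all libraries of AAC Magnet and of AAC Concord and in none of the others. Neither of these groupings was found as a split among the members. Both shares include AAC Starbuck, whose values chose the block, and nothing is read from them. Values this low are a few reads per library, and no test was run on them.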

How the data were processed

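Flag leaf RNA of 4 varieties was measured in 12 libraries, 3 per variety, grouped by their labels. Per the labels and the methods, the authors trimmed reads with Trimmomatic, quantified them with Salmon against IWGSC RefSeq v2.1 and used DESeq2, with tool versions not given in the sources used here. The deposited values are signal values, namely normalized counts per gene, whose normalization is not stated. They sum to 5077330 to 5902642 per library. Low values rise in steps taken as 1 read, and 84.7% to 91.3% of them were whole at a tolerance of 0.05 of a step, so whole reads were not recovered and no count model was run. The identifiers are of an earlier annotation form than that assembly, so only their order was used and no coordinate is given.

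Values were analysed as log2(value + 1) with limma 3.58.1 in R 4.3.3, with all 12 libraries in a single fit with variety as the only term (8 residual degrees of freedom), and Benjamini-Hochberg adjustment over the 44026 genes with at least 10 in at least 3 libraries. The fit was tested on simulated data. Fold changes on this scale understate changes of low genes. Against a variety at 0, a fold is a lower bound, taken as the lowest mean among the varieties where the gene was on, over the highest value of 3 reads among the libraries at 0.

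The block, its members and all lists were chosen with earlier results of these data known. Named members were the 4 with the widest gap in each split, the 16 on-off members with the highest mean, the 4 highest members, the 3 most positive and 3 most negative DEGs of each pair without AAC Starbuck, the ends of the block and of runs of at least 4 members with 1 split. Other members named were chosen after their values were seen. Alternatives were pseudocounts of 0.5 and 5, other filters, scalings and variance priors, calls without a fold limit, fits of only the compared varieties, a replicate block and each library left out.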

Additional observations from a re-analysis of the deposited data

How the results depend on the processing

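All counts of DEGs among members kept within 1.5 times of the reported ones under pseudocounts, scalings, prior trend, fits of the compared varieties alone and no filter. With genes limited to a mean of at least 50, 41 members remained, so fewer genes could be called. DEG counts were 11 for AAC Starbuck against AAC Concord, 10 against AAC Magnet, 11 against AAC Tradition and 9 against the mean of the others. They were 6 for AAC Concord against AAC Magnet, 5 for AAC Concord against AAC Tradition and 13 for AAC Magnet against AAC Tradition, with 24 in the F test. The fall was uneven, and AAC Concord against AAC Magnet came near AAC Concord against AAC Tradition. At this filter AAC Starbuck stood alone in 2 members, and AAC Starbuck and AAC Magnet stood together in 3. Its shares over all genes are not given. Without the limit on the fold change, AAC Concord against AAC Tradition gave 16. Leaving out a library gave 33 to 39, 20 to 25, 35 to 38, 32 to 34, 22 to 26, 7 to 10, 30 to 34 and 41 to 50 in the same order, 7 to 10 members with AAC Starbuck alone and 14 to 16 with AAC Starbuck and AAC Magnet together. Splits taken from libraries that do not overlap numbered 13 and 19. From member 61 on, the median of AAC Starbuck against AAC Magnet was below those of AAC Concord against AAC Magnet and AAC Magnet against AAC Tradition in every window, also with windows of 10 members and pseudocounts of 0.5 and 5. Of the values of single members that were followed under an alternative, 565 kept their call and direction and 16 lost the call. Not every call given above was among them. With a pseudocount of 0.5, TraesCS6B02G449000 lost its call between AAC Concord and AAC Tradition. TraesCS6B02G470600 lost its call between AAC Starbuck and AAC Magnet at the same setting.

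Scaling to the same total moved the median of all genes by -0.11 for AAC Concord against AAC Magnet and 0.12 for AAC Magnet against AAC Tradition. Whether replicate numbers pair the libraries was not settled. Residual correlations were -0.139 to 0.212 for the same number (median 0.029) and -0.227 to 0.184 for other numbers (median -0.007). Of the 12 libraries, 7 correlated best with their own number. With a replicate block the counts were 25, 9 and 30 for the 3 pairs without AAC Starbuck, 45 in the F test, and 39, 24 and 37 for AAC Starbuck against AAC Concord, AAC Magnet and AAC Tradition. Values at or below 3 reads count as off at this depth, and low genes may differ without a call. At TraesCS6B02G441000, however, calls were made between values under 3 reads and 0.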
